A study of Mus musculus with 12 samples.

Results

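The general mRNA decay machinery was examined in livers of hFIX-R29X hemophilia B mice as a list of 45 genes that encode decapping, deadenylation, 5′-3′ exonuclease, exosome, Ski complex and ribosome rescue proteins. The genes were chosen by symbol, and their levels in these livers were not part of the rule. Transcripts of 44 of the 45 were among the 31114 genes quantified, while Exosc6, an exosome core subunit, was not analysed here. Of the 44, 38 reached the expression filter, set at 5 TPM (a transcript level corrected for length) in 4 or more of the 12 livers, and entered the tests together with all other genes that reached it, 8846 in total.

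All 12 mice lacked the endogenous mouse factor IX gene and carried a human FIX minigene with the R29X nonsense codon under the human transthyretin promoter, which is active mainly in hepatocytes. They fell into 3 groups of 4, each with 2 females (replicates 1 and 2) and 2 males (replicates 3 and 4). The groups received the vehicle DPBS, a scrambled Control-GalNAc-ASO at 15 mg/kg or the Upf3b-GalNAc-ASO at 10 mg/kg. Mice of 8 to 14 weeks were given 6 doses at 5-day intervals and livers were collected 48 h after the last dose. An antisense oligonucleotide (ASO) of the gapmer type pairs with an RNA and lets RNase H cut it, and GalNAc is a sugar that hepatocytes take up through the asialoglycoprotein receptor. The control ASO and Upf3b-ASO groups differed both in oligonucleotide sequence and in dose, and these cannot be told apart.

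Most cytoplasmic mRNA decay begins with removal of the poly(A) tail by the Pan2-Pan3 and Ccr4-Not complexes. The shortened mRNA is then either decapped by Dcp2 with its partners and the Lsm1-7 ring and degraded from the 5′ end by Xrn1, or degraded from the 3′ end by the RNA exosome with the Ski complex. Nonsense-mediated mRNA decay (NMD), in which Upf3b acts as an adaptor to the exon junction complex, hands its substrates to the same enzymes. The comparisons addressed whether the abundance of the mRNAs for these enzymes differed when Upf3b was depleted.

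The ASO sequences are shown because the comparison rests on them, and because a similar stretch in a decay gene mRNA would bear on its readout. Each is given 5′ to 3′ as the parent oligonucleotide, with the central DNA gap of 10 bases in capitals and the wings of 3 constrained ethyl bases on each side in lower case. The third line is the Upf3b site, with the bases opposite the gap in capitals.
Upf3b-ASO: ggaTATAGATGTAacg
Control ASO: ggcCAATACGCCGtca
Upf3b site: cgtTACATCTATAtcc
The Upf3b-ASO matched Upf3b without mismatch in the 3′ UTR, in exon 10 of 10 of transcript Upf3b-201, at chrX:37091973-37091988 on the minus strand (GRCm38). No mature transcript of the 44 decay genes held a stretch with fewer than 4 mismatches to the Upf3b-ASO, counting any of the 16 positions and no gaps. The 4 genes that held a stretch with 4 mismatches were Cnot8, Exosc4, Exosc8 and Exosc10, and none of them passed the test below. Among the 38 tested decay genes, 10.53% had a best stretch of 4 or fewer mismatches, against 8.83% of all tested genes with a sequence. For the control ASO, no mature transcript of the 44 held a stretch with fewer than 4 mismatches either. Cnot6l, Dis3l and Exosc1 held a stretch with 4. Among the 38 tested decay genes, 5.26% had a best stretch of 4 or fewer mismatches to the control ASO, against 6.14% of all tested genes. Introns were not searched, and an effect of such stretches on levels was not tested.

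Upf3b itself was checked first. Its normalised read count, given throughout as CPM (counts per M, mega, of TMM-scaled library size), was 10.4, 9.38, 13.4 and 10.9 in DPBS livers 1 to 4. It was 8.58, 9.56, 7.93 and 12 in control ASO livers and 1.58, 0.651, 0.999 and 0.662 in Upf3b-ASO livers. The 4 Upf3b-ASO livers lay below every other liver, and the fitted level was 89.9% lower than in control ASO livers (log2 fold change −3.30 ± 0.27 (SE), edgeR quasi-likelihood test, adjusted p = 7.4e-05). The gene (ENSMUSG00000036572, chrX:37091678-37110322, minus strand) was covered by 10 to 227 counts per liver.

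Libraries held between 18.5 and 20.39 M (mega) estimated counts in DPBS livers, 17.64 to 18.76 M in the control ASO group and 13.28 to 17.05 M in the Upf3b-ASO group. In this bulk tissue, fewer cells of a type and less RNA per cell cannot be told apart. All 8 hepatocyte markers were detected, with a summed level of 67600 to 97300 CPM with DPBS, 63200 to 97800 with control ASO and 48800 to 86500 with Upf3b-ASO, and 1 of the 8, Serpina1c, was lower in Upf3b-ASO livers in both comparisons. No marker of the Kupffer cell, endothelial, stellate, bile duct, lymphocyte or erythroid lists passed the test, and no neutrophil marker reached the expression filter. The part of these cell types in the results was not tested. Control ASO replicate 1 held the highest summed macrophage (614 CPM, others at most 386 CPM), neutrophil (38.6 CPM) and erythroid (1640 CPM) markers, and the calls on decay genes were the same without it. Control ASO replicate 3, a male, stood apart from the other 11 livers. Its 8 acute-phase markers summed to 43200 CPM, against 4270 to 6560 in the others. Calls on decay genes against control ASO are given with and without it, while the log2 fold changes of single genes include it unless stated.

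The decay genes were expressed at low to moderate levels, with a median over the 44 genes of 10.9 TPM against 17.3 for all tested genes. The most abundant member of each machinery, by mean TPM over the 12 livers, was Wdr61 in the Ski complex (51.0), Hbs1l among the ribosome rescue factors (43.7), Lsm6 in the decapping machinery (42.7), Xrn2 among the 5′-3′ exonucleases (38.7), Pan3 among the deadenylation genes (35.2) and Exosc7 among the exosome and related 3′-5′ nucleases (24.7). Xrn1, the cytoplasmic 5′-3′ exonuclease, was at 5.21 TPM, and Pelo, the partner of Hbs1l in rescue of stalled ribosomes, was at 8.37 TPM. The 6 genes below the filter were Dcp1b (1.25), Edc3 (2.01), Dcp1a (2.15), Cnot3 (2.82), Dis3 (4.16) and Exosc1 (4.56). Edc3 and Dcp1a are activators of Dcp2, and Dis3 is the catalytic subunit of the exosome. The levels of some genes are uncertain because their transcripts share sequence with other genes. The share of 31-base stretches found elsewhere was 64.84% for Lsm7, 34.83% for Cnot3 and 25.84% for Lsm5. It was 32.86% for Wdr61, whose exons overlap Dnaja4 on the opposite strand, and 21.82% for Exosc4, which overlaps Oplah on the opposite strand. It was 1.3% for Cnot6 and 0.12% for Dis3l2.

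**Figure D1:**
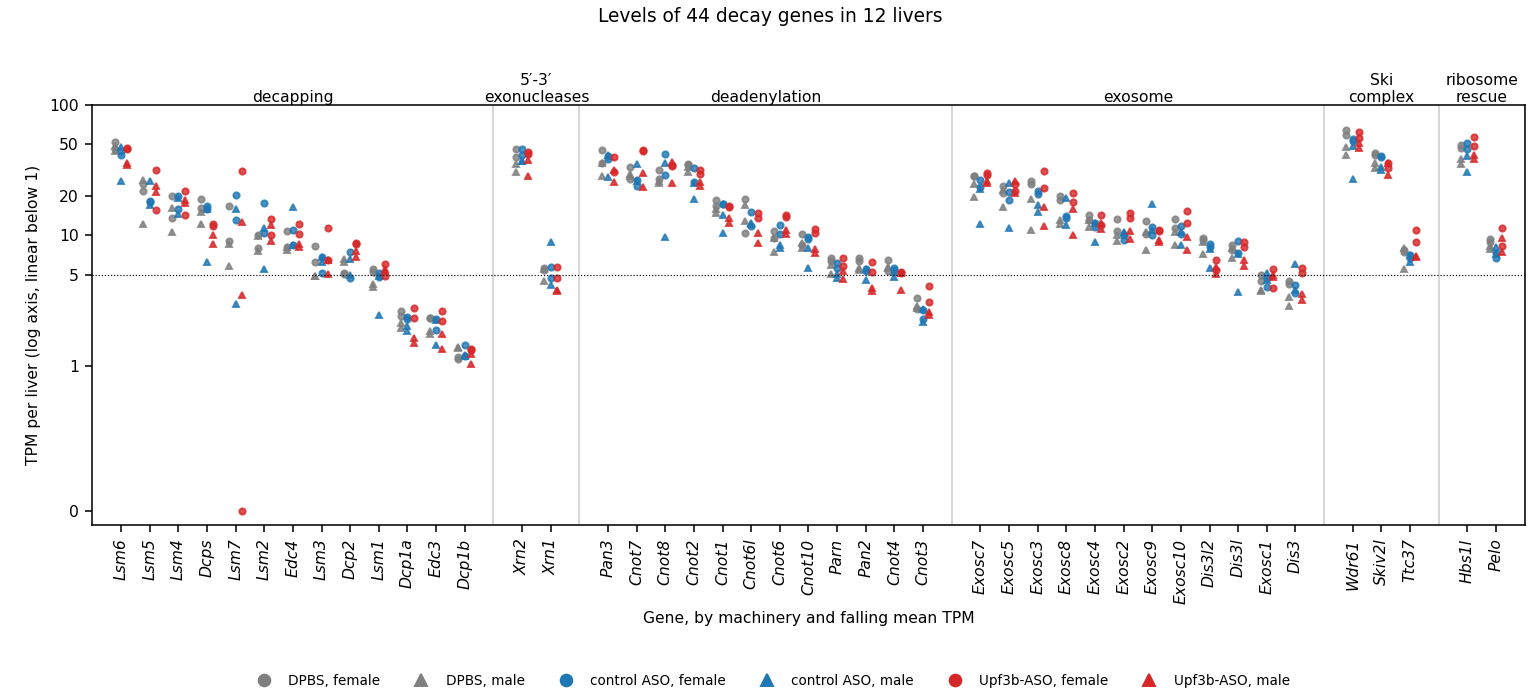
Level of the 44 decay genes in each of the 12 livers, in TPM on an axis that is linear below 1 and logarithmic above, with genes grouped by machinery and a dotted line at the TPM of 5 used as filter. Means over the 12 livers ran from 1.25 TPM for Dcp1b to 51.0 TPM for Wdr61, and single livers ran from 0 to 31.1 TPM for Lsm7.

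The summed level of the 44 decay genes was 1130 ± 16.6 CPM (SD, n = 4) with DPBS, 1130 ± 45.9 with control ASO and 1120 ± 35.6 with Upf3b-ASO, so the groups overlapped. Between Upf3b-ASO and control ASO livers, 2 of the 38 tested decay genes changed, Dis3l2, which fell, and Cnot6, which rose. They were 5.26% of the list, while 10.3% of all tested genes passed the threshold too (edgeR quasi-likelihood test, adjusted p under 0.05), 4.34% higher and 5.95% lower. The same 2 genes changed in the same directions against DPBS, where the background was 8.93% (3.57% higher and 5.36% lower). Both comparisons share the Upf3b-ASO livers. At an unadjusted p under 0.05, the count was 6 of 38 in each comparison (15.8%), against a background of 28.0% and 23.2%. When the study's cutoffs were applied to the edgeR test (over 2-fold change and an unadjusted p of at most 0.01), it was 0 of 38 in each, against a background of 2.40% and 2.07%. The study's p was a median over p-values of single replicates, so the 2 kinds of p are not the same measure.

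Differences across the list were small. Against control ASO, 22 of the 38 log2 fold changes were positive and 16 negative, with a median of 0.05 and a median size of 0.13, beside a median of −0.02 and a median size of 0.20 over all tested genes. Against DPBS, 25 were positive and 13 negative, with a median of 0.07 and a median size of 0.17, the latter the same as over all tested genes. For 37 of the 38 genes the 95% interval of the fold change lay within 2-fold in either direction in each of these comparisons, and for 25 (control ASO) and 31 (DPBS) it lay within 1.5-fold. The exception at 2-fold was Lsm7. Upf3b-ASO livers did not overlap control ASO livers for 5 of the 38 genes (13.2%, background 15.4%), namely Cnot4, Cnot6, Dis3l2, Exosc7 and Skiv2l. They did not overlap DPBS livers for 12 (31.6%, background 22.4%), which were Cnot1, Cnot7, Cnot8, Dcps, Hbs1l, Lsm2 and Lsm6 besides these 5.

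**Figure D2:**
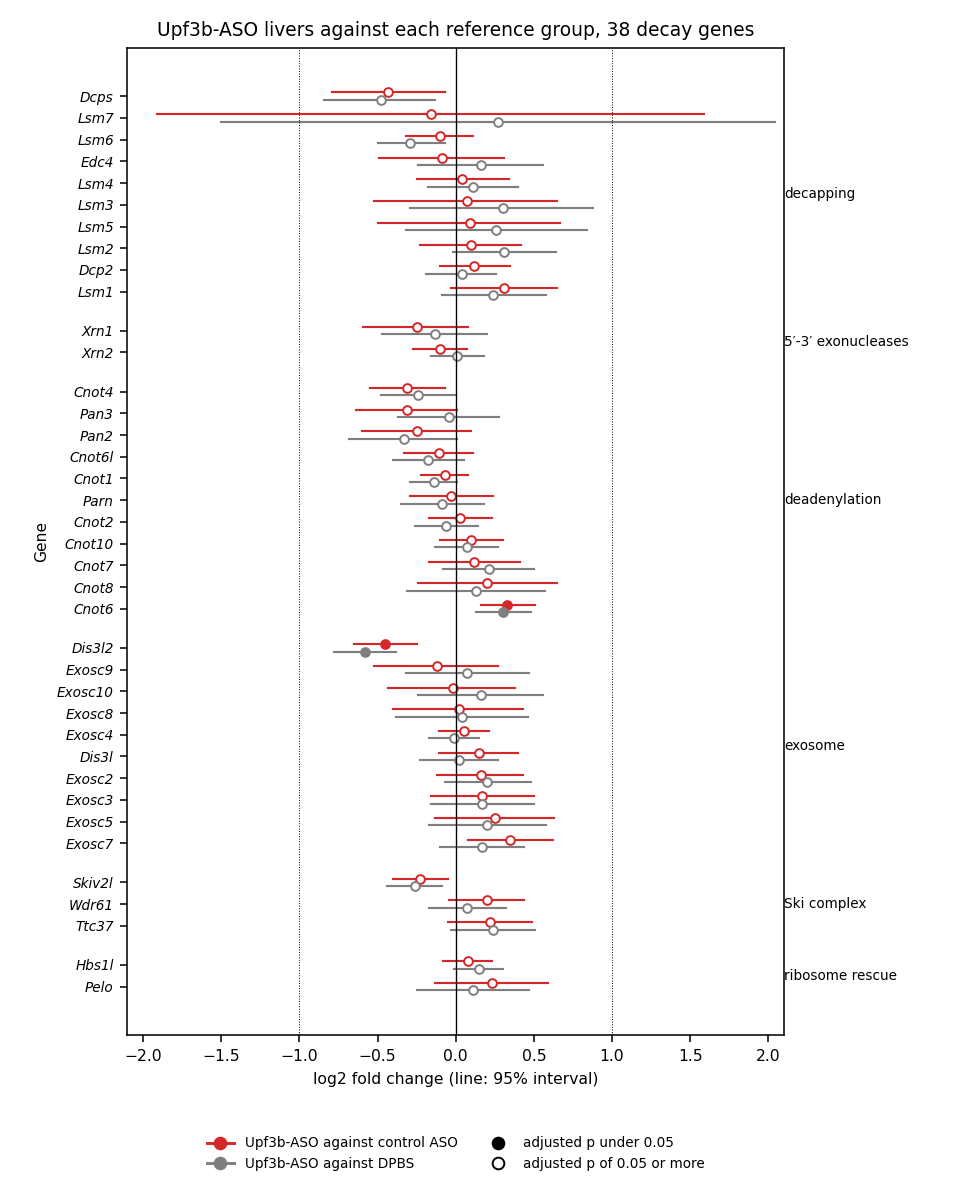
Log2 fold change of the 38 tested decay genes in Upf3b-ASO livers against control ASO (red) and against DPBS (grey), with 95% intervals; filled points have an adjusted p under 0.05 and dotted lines mark 2-fold. Filled points are seen only at Dis3l2, at −0.45 and −0.58, and at Cnot6, at 0.33 and 0.30, and the interval of Lsm7 alone crosses the dotted lines.

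Deadenylation was represented by 12 genes, of which 11 were tested and 1, Cnot6, changed. Cnot6 (ENSMUSG00000020362, chr11:49671503-49712723, minus strand) encodes a Ccr4-type deadenylase of the Ccr4-Not complex and was covered by 438 to 820 counts per liver. Its level was 38.7, 38.2, 34.3 and 37.5 CPM with DPBS, 41.6, 38.1, 31.6 and 34.9 CPM with control ASO, and 51.4, 44.5, 44.6 and 43.2 CPM with Upf3b-ASO. Every Upf3b-ASO liver lay above all 8 others, with the female of replicate 1 highest. Cnot6 was 26.0% higher than in control ASO livers (log2 fold change 0.33 ± 0.08, 95% interval 0.16 to 0.51, edgeR adjusted p = 0.026) and 23.5% higher than in DPBS livers (0.30 ± 0.08, 0.13 to 0.48, edgeR adjusted p = 0.040). When the replicate number was the block, the adjusted p was 0.04 against control ASO and 0.059 against DPBS, so the second call was lost. Without 1 liver at a time, Cnot6 passed the threshold in 4 of 8 fits against control ASO and in 1 of 8 against DPBS, with adjusted p-values up to 0.11 and a log2 fold change of at least 0.27 in each.

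The other deadenylation genes did not pass the test. Cnot6l, the paralog of Cnot6, had a log2 fold change of −0.11 against control ASO and −0.18 against DPBS. The Caf1-type deadenylases Cnot7 and Cnot8 were at 0.12 and 0.20 against control ASO. The scaffold subunit Cnot1, at 105 to 127 CPM, was at −0.07 against control ASO and −0.14 against DPBS, where its groups did not overlap (106 to 112 CPM in Upf3b-ASO against 115 to 127 CPM in DPBS livers). Cnot4, a ubiquitin ligase that associates with the complex, was 13.8 to 15.9 CPM with DPBS, 13.7 to 18.4 CPM with control ASO and 11.5 to 13.2 CPM with Upf3b-ASO, lower in the last group than in any other liver, but its difference did not pass (−0.31 ± 0.11, edgeR adjusted p = 0.096). The paired subunits of the other deadenylase, Pan2 and Pan3, were at −0.25 and −0.31 against control ASO, and Parn, a poly(A)-specific ribonuclease, was at −0.03. Cnot3, below the filter, was 4.61 to 7.11 CPM with DPBS, 4.64 to 5.08 with control ASO and 4.26 to 6.67 with Upf3b-ASO.

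In the decapping machinery, 10 of 13 genes were tested and none changed. The catalytic subunit Dcp2 ranged from 23.6 to 31.7 CPM over the 12 livers, with a log2 fold change of 0.12 (95% interval −0.10 to 0.35) against control ASO and 0.04 (−0.19 to 0.26) against DPBS. Edc4, the scaffold that joins Dcp1 and Dcp2, was at −0.09 and 0.16. Dcp1a, Dcp1b and Edc3 were below the filter, and their group means differed by little, at 10.9, 11 and 9.86 CPM for Dcp1a, 2.45, 2.74 and 2.48 for Dcp1b, and 9.74, 9.56 and 8.98 for Edc3 in DPBS, control ASO and Upf3b-ASO livers. Dcps, the scavenger enzyme that breaks down the cap left after 3′-5′ decay, had the lowest fold change of the group. It was 16, 14.1, 12.4 and 13 CPM with DPBS, 14.5, 15.2, 8.36 and 15.5 CPM with control ASO and 10.2, 9.83, 10.3 and 9.34 CPM with Upf3b-ASO. The Upf3b-ASO livers lay below all DPBS livers and below 3 of the 4 control ASO livers. The difference did not pass against control ASO (−0.43 ± 0.16, edgeR adjusted p = 0.12) or against DPBS (−0.48 ± 0.16, edgeR adjusted p = 0.095).

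The 7 subunits of the Lsm1-7 ring, which binds the shortened 3′ end and promotes decapping, gave 5 positive and 2 negative log2 fold changes against control ASO, none of which passed the test. Lsm1, the subunit that sets the cytoplasmic ring apart from the nuclear one, had a log2 fold change of 0.31 against control ASO and 0.24 against DPBS. Lsm6 was at −0.10 and −0.29 (edgeR adjusted p = 0.53 and 0.096), and Lsm2 at 0.10 and 0.31. The Lsm genes of few counts were poorly resolved, with intervals of −0.50 to 0.67 for Lsm5 and −1.91 to 1.59 for Lsm7 against control ASO. Lsm7 ranged from 0 to 6.57 CPM, and its 0 counts in Upf3b-ASO replicate 1 allow up to 3 counts, or 0.215 CPM, for counting error alone.

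Neither 5′-3′ exonuclease changed. Xrn1 was 27.6 to 32.8 CPM with DPBS, 27.8 to 43.0 CPM with control ASO and 24.6 to 32.8 CPM with Upf3b-ASO, with a log2 fold change of −0.25 (95% interval −0.59 to 0.08) against control ASO and −0.13 (−0.47 to 0.20) against DPBS. Xrn2, the nuclear enzyme that acts in transcription termination, had narrow intervals, at −0.10 (−0.27 to 0.07) and 0.01 (−0.16 to 0.18).

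Among the exosome and related 3′-5′ nucleases, 10 of 12 genes were tested and 1, Dis3l2, changed. Dis3l2 (ENSMUSG00000053333, chr1:86703808-87050095, plus strand, a span of 346 kb) encodes a cytoplasmic exonuclease that degrades uridylated RNAs independently of the exosome. Covered by 213 to 442 counts per liver, it was 21.1, 22.1, 22.2 and 23.4 CPM with DPBS, 19.1, 20.7, 18.7 and 22.5 CPM with control ASO, and 15.3, 12.8, 15.8 and 15.6 CPM with Upf3b-ASO. All 4 Upf3b-ASO livers were below the other 8, and the female of replicate 2 was lowest. The fitted level fell by 0.45 ± 0.09 on the log2 scale against control ASO (95% interval −0.65 to −0.25, a change of −26.8%, edgeR adjusted p = 0.011) and by 0.58 ± 0.09 against DPBS (−0.78 to −0.38, −33.1%, edgeR adjusted p = 0.0028). It remained past the threshold in each of the 8 fits without 1 liver in both comparisons. It was the only member that spans more than 300 kb.

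The exosome itself showed no called change. The core subunits tested had log2 fold changes against control ASO of −0.12 (Exosc9) to 0.35 (Exosc7). Exosc7 was 18.0, 19.6, 16.9 and 19.0 CPM with DPBS, 18.0, 16.7, 12.1 and 17.8 CPM with control ASO, and 20.1, 19.8, 20.4 and 22.3 CPM with Upf3b-ASO. The treated livers were highest, but the difference did not pass against control ASO (0.35 ± 0.12, edgeR adjusted p = 0.090) or DPBS (0.17, edgeR adjusted p = 0.45). Of the catalytic subunits, Exosc10, which acts mainly in the nucleus, was at −0.02 and 0.16, and Dis3l, the cytoplasmic form, at 0.15 and 0.02. Dis3, below the filter, was 10.6 to 12.4 CPM in DPBS and 11.9 to 15.5 CPM in Upf3b-ASO livers, and 11.1 to 25.9 CPM in control ASO livers. Exosc1, a cap subunit of the exosome also below the filter, was 4.94 to 5.87, 4.66 to 7.42 and 4.65 to 8.94 CPM in these groups.

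The Ski complex and the rescue factors gave no called change. Skiv2l, the helicase that feeds RNA to the exosome, was 81.3, 90.5, 90.5 and 96.1 CPM with DPBS, 80.8, 86.7, 97.2 and 85.5 CPM with control ASO, and 79.9, 67.7, 74.1 and 76.8 CPM with Upf3b-ASO. The treated livers were below all others, with differences that did not pass (−0.23 ± 0.08, edgeR adjusted p = 0.091 against control ASO, and −0.26 ± 0.08, edgeR adjusted p = 0.068 against DPBS). Its partners Ttc37, at 0.22 and 0.24, and Wdr61, at 0.20 and 0.07, had values of the opposite sign. Pelo was at 0.23 and 0.11, and Hbs1l at 0.08 (95% interval −0.08 to 0.23) and 0.15 (−0.01 to 0.30).

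**Figure D3:**
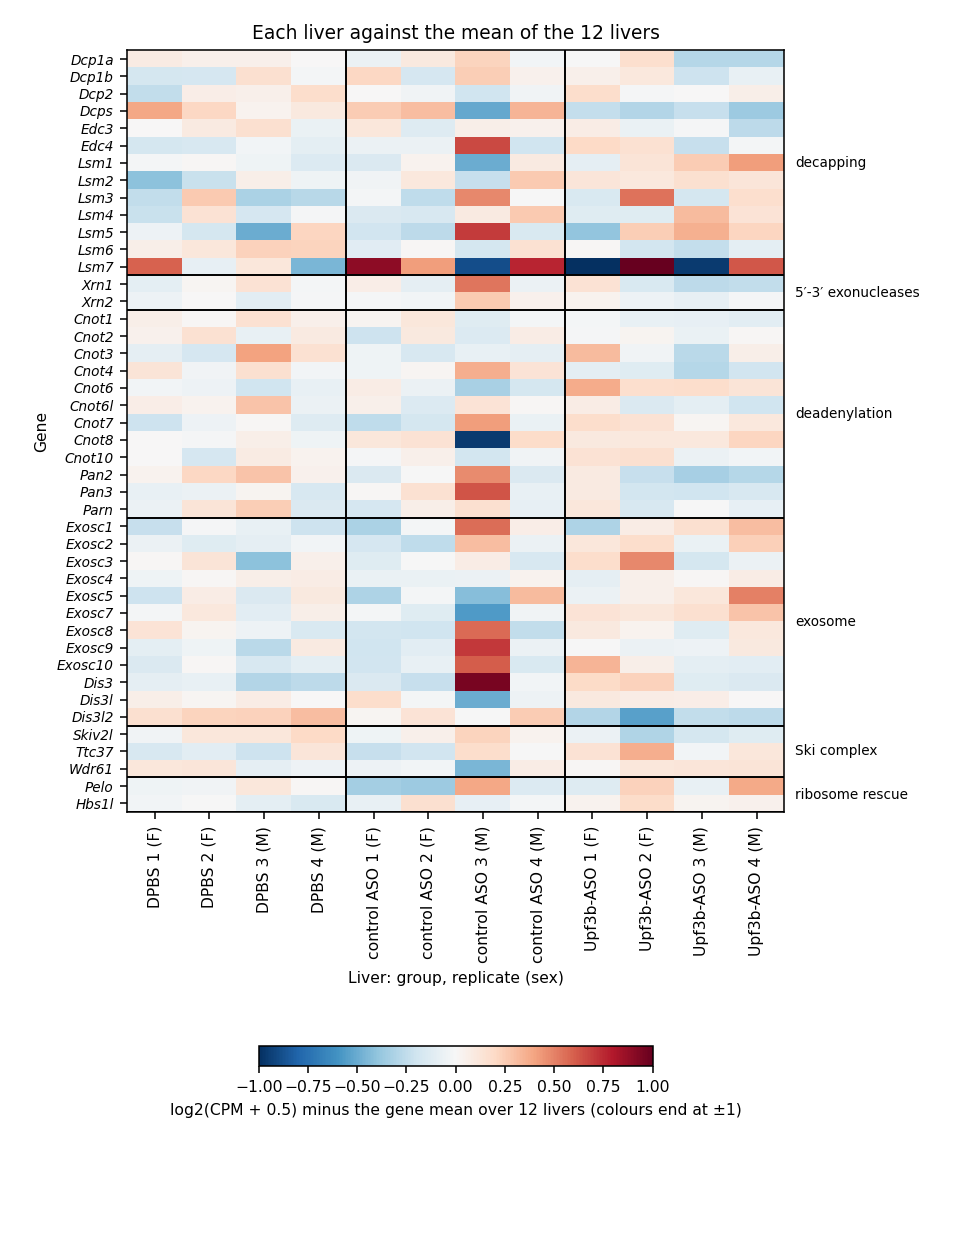
Level of the 44 decay genes in each of the 12 livers as log2(CPM + 0.5) minus the gene's mean over the livers, with genes grouped by machinery and colours ending at 1 in either direction. Control ASO replicate 3 is the column with the strongest colours, while the 4 Upf3b-ASO columns show lower Dis3l2 and higher Cnot6 without a shift of a whole machinery.

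Control ASO replicate 3 was the highest or the lowest of the 12 livers for 24 of the 38 decay genes (63.2%), close to its share over all tested genes (63.1%). It was highest for 14 and lowest for 10. Its Dis3 was 25.9 CPM against 11.1 to 12.8 CPM in the 3 others of its group, and its Edc4 was 45.7 CPM against 25 to 27.6 CPM. Its Cnot8 was 18.7 CPM against 39.7 to 41.7 CPM, and its Dcps 8.36 CPM against 14.5 to 15.5 CPM. Without this liver, 7 of the 38 decay genes (18.4%) and 24.5% of all tested genes changed against control ASO. Dis3l2 (log2 fold change −0.50, edgeR adjusted p = 0.0012) and Cnot6 (0.29, edgeR adjusted p = 0.0092) were still called. The others called were Dcps (−0.59, edgeR adjusted p = 0.0013), Cnot7 (0.28, 0.024), Pelo (0.40, 0.0455), Exosc2 (0.29, 0.046) and Exosc7 (0.24, 0.0463). None of these 5 passed against DPBS in the fit with all livers.

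The control ASO by itself was not followed by a called change in the decay genes. Against DPBS, 0 of the 38 passed the edgeR test (background 0.0113%) and 0 had an unadjusted p under 0.05 (background 6.97%). With DESeq2 0 passed as well, beside 0.509% of all tested genes. The log2 fold changes ran from −0.19 (Lsm6) to 0.43 (Lsm7), and control ASO and DPBS livers overlapped for every gene, against a background of 2.95% without overlap. Their median size was 0.09.

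Between males and females, 0 of the 38 decay genes passed the edgeR test, while 10.0% of all tested genes did, and 1, Cnot6, had an unadjusted p under 0.05 (background 23.8%). The difference between the Upf3b-ASO effects of the sexes passed for 0 of the 38 genes and for 0% of all tested genes. At an unadjusted p under 0.05, 3 decay genes were found, Cnot7, Exosc10 and Ttc37, against a background of 7.31%. Without control ASO replicate 4, which leaves replicate 3 as the lone control male, 18 of the 38 genes and 43.7% of all tested genes passed this test of the difference, so it depended on a single liver.

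To place these values, 80 further genes of mRNA decay and of the surveillance of stalled ribosomes were examined, of which 69 were tested. Against control ASO, 6 changed (8.70%, background 10.3%), 1 higher and 5 lower, and against DPBS 5 of these 6 did (7.25%, background 8.93%), all lower. Both shares were near those over all tested genes. The lower genes alone were 7.25% in each comparison (background 5.95% and 5.36%), and the higher genes 1.45% and 0% (background 4.34% and 3.57%). This list was written with earlier results of these data known. The lowest adjusted p against control ASO belonged to Ddx6, the helicase that represses translation and activates decapping. Ddx6 was 92.2, 95.1, 103 and 99 CPM with DPBS, 95.3, 101, 124 and 101 CPM with control ASO, and 71.6, 66.3, 71.5 and 66.9 CPM with Upf3b-ASO. Every treated liver lay below every other (−0.61 ± 0.08, edgeR adjusted p = 0.0013 against control ASO, and −0.49 ± 0.08, edgeR adjusted p = 0.0041 against DPBS).

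Ltn1, the ubiquitin ligase that marks nascent chains on stalled ribosomes, was 54.5, 55.5, 56.5 and 56.1 CPM with DPBS, 55.2, 58.7, 43.8 and 54.4 CPM with control ASO, and 40.6, 39.7, 36.8 and 36.4 CPM with Upf3b-ASO. It fell against both groups (−0.47 ± 0.09, edgeR adjusted p = 0.0074, and −0.54 ± 0.09, edgeR adjusted p = 0.0034). Gigyf2, a translational repressor that acts on stalled mRNAs, and Ago3, an Argonaute protein that binds microRNAs, fell as well. Gigyf2 was 46.1 to 55.5 CPM in the 8 reference livers and 31.9 to 41.2 CPM in Upf3b-ASO livers (−0.35 ± 0.09, edgeR adjusted p = 0.044, and −0.45 ± 0.09, 0.014). Ago3 was 31.6 to 39.9 CPM with DPBS, 22.6 to 33 CPM with control ASO and 18.0 to 23.7 CPM with Upf3b-ASO (−0.48 ± 0.14, edgeR adjusted p = 0.04998, and −0.73 ± 0.14, 0.0085). Its control ASO and Upf3b-ASO ranges overlapped.

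Eri3, an exoribonuclease of the 3′-5′ family, was 18.7 to 21.8 CPM in the reference livers and 13.4 to 16.7 CPM in Upf3b-ASO livers (−0.35 ± 0.09, edgeR adjusted p = 0.036, and −0.40 ± 0.09, 0.023). On the scale of TPM, where transcripts are weighted by length, its log2 fold change against control ASO was 0.01, beside a median over all tested genes of 0.06 or 0.07 (by pseudocount) on that scale and −0.02 on the scale of counts. G3bp1, a stress granule protein, was the gene that rose, from 57.8 to 71.8 CPM in control ASO livers to 75.5 to 91.2 CPM in Upf3b-ASO livers (0.30 ± 0.08, edgeR adjusted p = 0.036), but it overlapped the DPBS livers at 61.1 to 78.5 CPM (0.18, edgeR adjusted p = 0.20). With the replicate number as a block, Ddx6, G3bp1 and Ltn1 were the 3 further genes still called against control ASO. Over 21 alternatives in this comparison, Ddx6 passed the threshold in 20, Ltn1 in 16, Eri3 and G3bp1 in 6 each, Gigyf2 in 4 and Ago3 in 3. Among the further genes, Dxo, which removes incomplete caps, was the 1 that differed between the sexes (0.53 higher in males on the log2 scale, edgeR adjusted p = 0.020).

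**Figure D4:**
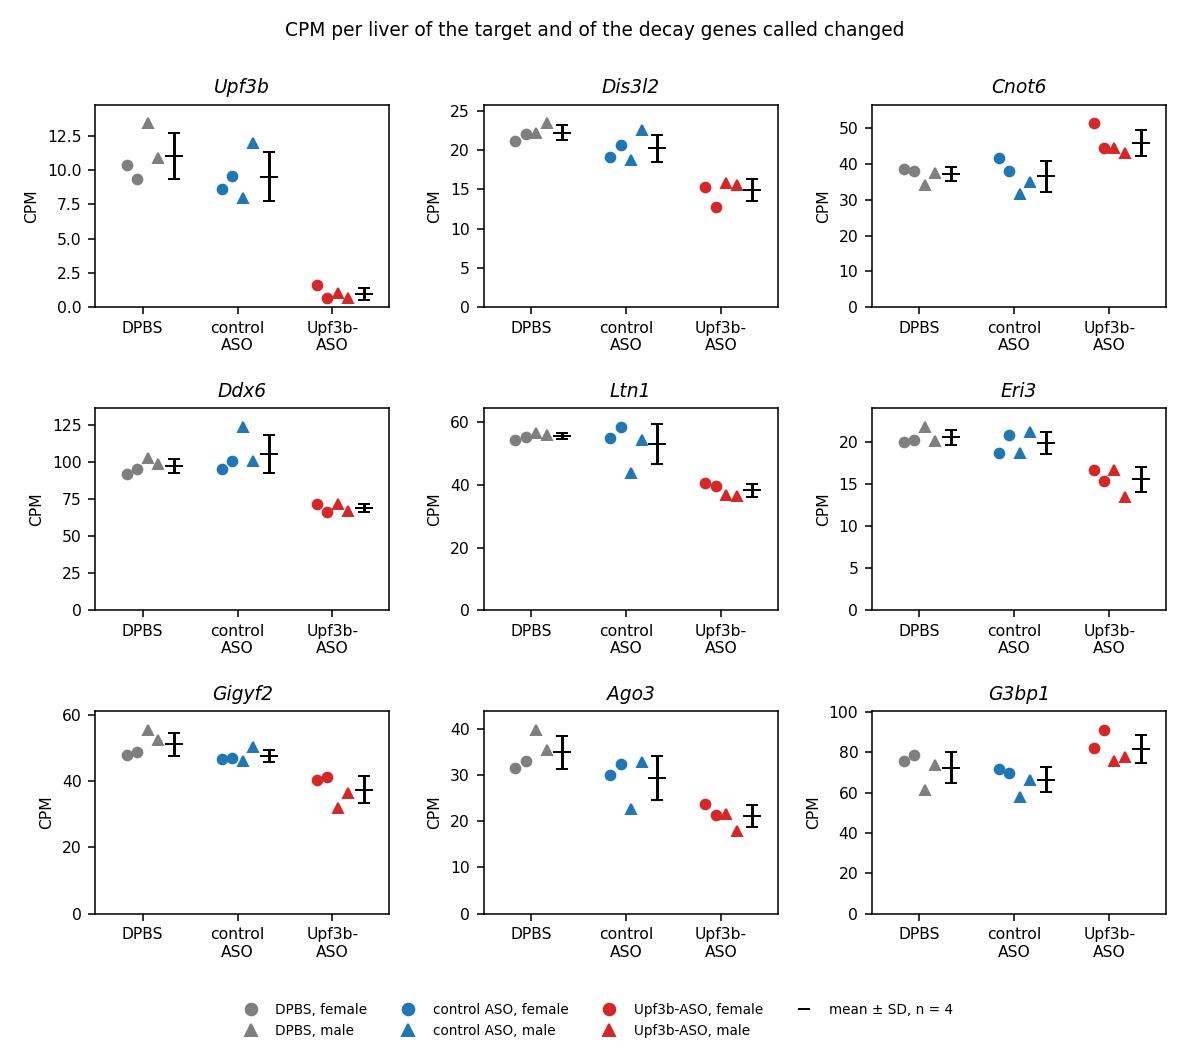
Normalised read count (CPM) in each liver, with the mean ± SD of 4 livers per group, for Upf3b, the 2 decay genes that changed and the 6 further genes that changed against control ASO. Upf3b-ASO livers lie apart from the other 8 for Upf3b, Dis3l2, Cnot6, Ddx6, Ltn1, Eri3 and Gigyf2, and overlap at least 1 reference group for Ago3 and G3bp1.

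At the level of single transcripts, the 44 decay genes had 232 annotated transcripts, of which 131 reached 1 TPM in 4 or more livers. None passed the edgeR test against control ASO or DPBS, where the background was 0.985% and 0.967%. At an unadjusted p under 0.05, 7 (5.34%) and 6 (4.58%) were found, beside 3984 and 3288 of all 33212 tested transcripts, and DESeq2 called 2 (Cnot6-203 and Dis3l2-202) and 1 (Dis3l2-201). The lowest adjusted p against control ASO belonged to Cnot6-203 (0.39 ± 0.11, edgeR adjusted p = 0.16). For Dis3l2, the log2 fold changes against control ASO were −0.15 for Dis3l2-201 and −1.98 ± 0.71 for Dis3l2-202 (edgeR adjusted p = 0.29 for the latter). In simulated data the transcript test recovered 6.2% of changes of 1 on the log2 scale, so it missed most differences of that size in that setting.

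Transcripts of the nonsense_mediated_decay biotype, annotated as having a stop codon far upstream of an exon junction, numbered 18 in 14 decay genes, with 9 tested. Against control ASO 7 of the 9 had a positive and 2 a negative log2 fold change, with a median of 0.17 against 0.06 over all 1834 tested transcripts of this biotype. Against DPBS 5 were positive and 4 negative, with a median of 0.06 against 0.12, and between control ASO and DPBS 3 were positive and 6 negative, with a median of −0.36 against 0.02. The most abundant, Lsm5-204, was at 0.13 ± 0.36, and Cnot2-212 was 5.55 ± 3.38 CPM (SD, n = 4) with control ASO and 8.27 ± 2.11 CPM with Upf3b-ASO (0.56 ± 0.45). Lsm5-204 had a mean of 19.3 TPM over the 12 livers, against 3.43 TPM for the next of the biotype, Cnot2-211. It held 95.2%, 86.8% and 85.3% of Lsm5 TPM with DPBS, control ASO and Upf3b-ASO. The level of Lsm5 was thus mainly that of this transcript, which also weighed most in the share that follows. All 18 together held 5.39 ± 0.805% of the TPM of the decay genes with DPBS, 4.78 ± 0.989% with control ASO and 5.50 ± 1.52% with Upf3b-ASO, shares that overlapped. Of the 28 tested transcripts of the retained_intron biotype, 6 had a positive and 22 a negative log2 fold change against control ASO, with a median of −0.33 against −0.13 over all 5918 of this biotype. Against DPBS the same 28 gave 10 positive and 18 negative values, with a median of −0.11 against 0.00. Between control ASO and DPBS they gave 21 positive and 7 negative values, with a median of 0.28 against 0.11. All transcripts of this biotype held 13.3 ± 0.964% of decay gene TPM with DPBS, 14.5 ± 2.76% with control ASO and 12.1 ± 1.87% with Upf3b-ASO, while protein_coding transcripts held 71.5%, 70.8% and 72.8%.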

How the data were processed

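Liver RNA of 12 mice was sequenced by the authors from TruSeq libraries on an Illumina HiSeq2500 (bcl2fastq 2.17.1.14) and quantified with Salmon 0.7.2 against Ensembl mouse cDNA (GRCm38). The deposited files give, for each transcript, estimated counts, which are fractional where reads were shared, and TPM values, which the authors' software scaled by effective length to a fixed sum per liver. Groups, sex and replicate numbers came from the labels, which name 1 animal per file. The labels give no batch.

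Transcripts were joined to GENCODE M21 (98.1% of 92468), and the estimated counts of each gene's transcripts were added and rounded. The joined transcripts held 97.51 to 99.26% of the counts and 79.7 to 95.91% of the TPM of a liver. The 8846 genes at 5 TPM or more in 4 or more of 12 livers entered a quasi-likelihood fit in edgeR 4.0.16 (R 4.3.3) with TMM normalization, all livers in 1 fit, sex as covariate and Benjamini-Hochberg adjustment over all genes tested at 0.05. For 33212 transcripts the filter was a TPM of 1. Standard errors were taken from the fold change and the F statistic, and 95% intervals from the t distribution with the moderated degrees of freedom. The smallest p of an exact permutation test of 4 against 4 livers is 0.029. Intervals and counts of 0 cover counting error alone where stated, and molecules were not tagged. Total estimated counts per liver were 13.28 to 20.39 M (M, mega).

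On simulated counts the gene test recovered 93.5% of 200 changed genes (87.4% at a log2 change of 1) with 6% false calls. The simulation was a single draw from each gene's mean over the livers, with the spread typical of its level. It held no sex effect and no outlying liver, so recovery in these livers can differ. Changes smaller than 1 on the log2 scale were not simulated. Recovery at the sizes seen for Dis3l2 and Cnot6 was therefore not measured. Same-numbered livers of different groups correlated in their deviations from the group means (r = 0.198 to 0.611, mean 0.491). Livers of the same sex with other numbers did so equally (0.237 to 0.623, mean 0.485). The replicate number thus showed no pairing beyond sex, and the block and sex overlap. Alternatives covered filters, size factors, DESeq2 1.42.0, limma 3.58.1 on log2 TPM with pseudocounts of 1 and 0.1, an offset for transcript length, the replicate block, the sex covariate, the samples in the fit, thresholds and leaving out each liver.

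The decay genes, the further genes and the marker lists were chosen with earlier results of these data known. Named with values in every liver were the decay genes past the threshold, and of the further genes Ddx6 and Ltn1. The other further genes past the threshold, the most abundant gene of each machinery and those below the filter were named with values or ranges. Other genes with values (such as Dcps, Exosc7, Skiv2l and Cnot4) were chosen after their values were seen. Upf1-ASO livers were not analysed here.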

Additional observations from a re-analysis of the deposited data

Results flagged for a closer look

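In 16 of 153 groups of 4 livers examined over the decay genes and the further genes named above, 1 liver lay far from the other 3 by Dixon's criterion. Chance alone gives about 1 in 20 groups, or 7.7 here. Control ASO replicate 3 was that liver in 8 of the 16. It was the lowest of its group for Dcps (8.36 CPM) and Cnot8 (18.7 CPM), and the highest for Edc4 (45.7 CPM), Lsm5 (6.2 CPM), Exosc8 (11.9 CPM), Exosc9 (20.8 CPM), Exosc10 (31.2 CPM) and Dis3 (25.9 CPM). The same liver had the acute-phase marker sum given above, and the part of that in these values was not tested.

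In Upf3b-ASO livers, replicate 1 was highest for Cnot6 (51.4 CPM) and Pan3 (47.7 CPM), replicate 4 for Cnot8 (42.8 CPM) and replicate 2 for Hbs1l (116 CPM), while replicate 2 was lowest for Dis3l2 (12.8 CPM). Leaving out any of these 3 livers left the calls on Dis3l2 unchanged, while the call on Cnot6 was lost in both comparisons without replicate 1 or 4 and kept without replicate 2. In DPBS livers, replicate 2 was highest for Lsm3 (3.71 CPM) and replicate 3 for Eri3 (21.8 CPM). In control ASO livers, replicate 4 was highest for Exosc4 (16.5 CPM), a gene whose values spanned little between livers.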

How the results depend on the processing

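Shares in parentheses are of all genes tested in that fit. Against control ASO, where 2 decay genes changed, the count was 4 with the DESeq2 Wald test (17.9%). A count of 1 came with a transcript length offset (7.03%) or without the sex covariate (5.87%). None was called without the expression filter (3.62%), with limma on log2(TPM + 1) (3.92%) or log2(TPM + 0.1) (3.78%), or in a fit of the 2 groups alone (4.10%). The count was also 0 in females (1.68%) or males alone (4.05%) and at an adjusted p under 0.01. The same held at an unadjusted p of at most 0.01 with over 2-fold change (2.40%). Leaving out 1 liver gave 1 to 7. The call on Cnot6 was lost without control ASO replicate 2 or Upf3b-ASO replicate 1, 3 or 4, and the 7 came without control ASO replicate 3 (24.5% of all tested genes). Against DPBS the count, also 2, was 6 in a fit of the 2 groups alone (28.0% of all tested genes) and 4 with DESeq2 (14.4%). A count of 1 came without the filter (3.08%), with limma (3.67% and 3.54%), with the replicate block (6.85%) or without the sex covariate (5.39%). The count was also 1 at an adjusted p under 0.01. None was called in females (1.57%) or males alone (3.04%) or at the cutoff with over 2-fold change (2.07%). Leaving out 1 liver gave 1 to 2, and Cnot6 was lost in each such fit except that without Upf3b-ASO replicate 2. Dis3l2 passed in 15 of 21 alternatives against control ASO (log2 fold change −0.51 to −0.35, adjusted p up to 0.16) and 19 of 21 against DPBS (−0.62 to −0.52, up to 0.074), and Cnot6 in 9 (0.27 to 0.41, up to 0.33) and 7 (0.27 to 0.42, up to 0.27). The replicate block changed no other call on a decay gene, with Dis3l2 at an adjusted p of 0.024 and 0.0089.

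For sex, where 0 decay genes differed, limma on TPM called 9 and 8 (pseudocounts of 1 and 0.1), all lower in males, beside 34.6% and 33.6% of all tested genes, on a scale where the median of all genes was itself −0.29 and −0.31. The difference between the sexes in the Upf3b-ASO effect was 0 to 18 genes without 1 liver. For single transcripts, 0 against either group, DESeq2 called 2 against control ASO and 1 against DPBS. Leaving out 1 liver gave 0 to 1 against control ASO (Dcps-201, without control ASO replicate 3). The shares over all transcripts in these fits are not given here. Of the further genes, 6 against control ASO (10.3% of all tested genes), 12 were called with DESeq2 (17.9%). The count was 3 with the replicate block (7.90%), without the sex covariate (5.87%) or in males alone (4.05%). It was also 3 with upper-quartile normalization, where the share of all tested genes was slightly above 10.3%. A count of 2 came with edgeR's own filter (6.24%), with the length offset (7.03%) or in a fit of the 2 groups alone (4.10%). It was also 2 at an adjusted p under 0.01, where the share is not given here. A count of 1 came without the filter (3.62%) or with either limma fit (3.92% and 3.78%). None was called in females alone (1.68%) or at the cutoff with over 2-fold change (2.40%). Leaving out 1 liver gave 2 to 12. The lowest of these counts, 2, came without control ASO replicate 2 or Upf3b-ASO replicate 2, 3 or 4 and the highest without control ASO replicate 3 (24.5% of all tested genes). The log2 fold change against control ASO changed sign for Eri3 (0.01 in both limma fits, where the median of all genes was 0.06 and 0.07) and, in males alone, for Cnot7 (−0.13) and Exosc2 (−0.04). The cause of these differences was not tested.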
